A study of Homo sapiens with 2 samples.

Results

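The TFEB family, folliculin and Rag GTPases make up a nutrient-sensing circuit on the lysosome, and 9 of its genes were followed here in 786-O cells kept without or with glucose. They were taken by symbol: the transcription factor genes TFEB, TFE3 and MITF, the folliculin gene FLCN with its partners FNIP1 and FNIP2, and the Rag GTPase genes RRAGA, RRAGC and RRAGD. All 9 were found among 22595 gene symbols, and all 9 were among the 14240 symbols with at least 20 counts over both libraries, called measured from here on. The 786-O line, long established, was derived from a human clear cell kidney cancer and carries no working VHL, which in other cells targets HIF proteins for breakdown. Total RNA was sequenced from 1 culture in medium with 0 mM glucose and from 1 culture in medium with 25 mM glucose. How long the cells went without glucose is not stated in the labels. The sample descriptions differed (LucG without glucose, LucF with glucose), and any further difference between the cultures that these names mark cannot be told apart from glucose.

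Rag GTPases work as pairs of RagA or RagB with RagC or RagD, which dock mTORC1 on the lysosome when amino acids are plentiful. Folliculin, bound to FNIP1 or FNIP2, is the GTPase-activating protein for RagC and RagD, and the RagC or RagD form that it produces brings TFEB and TFE3 to mTORC1, which phosphorylates them and holds them in the cytoplasm. Freed of that phosphorylation, TFEB, TFE3 and MITF enter the nucleus and bind E-box sequences near genes of lysosomes and autophagy, and the genes of RagC, RagD, folliculin and FNIP proteins are themselves reported targets. In the kidney, loss of FLCN and fusions of TFE3 or TFEB are known causes of renal tumours. This control acts largely on where the proteins are, and transcript counts do not report it.

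Transcripts of folliculin and of the Rag GTPases were more abundant in the library without glucose and those of TFEB and MITF less abundant, while TFE3 stood at nearly the same level. RRAGC, the gene of RagC, was 3.65-fold higher without glucose (95% counting interval 3.004 to 4.47) and FLCN 2.24-fold higher (2.10 to 2.39). FNIP1, RRAGD and RRAGA were 1.81-fold, 1.72-fold and 1.61-fold higher. TFEB was at 0.326 of its level with glucose (interval 0.250 to 0.420) and MITF at 0.462 (0.418 to 0.511). TFE3 differed by 1.02-fold (0.959 to 1.09), and FNIP2 by 0.820-fold (0.687 to 0.977).

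The library without glucose held 31345853 counts and the library with glucose 27317598. Levels are given in CPM, counts per 1000000 of a library size adjusted by the TMM method. With 1 library per condition there was no replicate and no test was made. Higher and lower therefore describe these libraries, and the intervals cover counting error only. In bulk RNA, fewer cells with a transcript and less of it per cell cannot be told apart. A gene was called higher or lower when its whole interval lay above 2-fold or below 0.5-fold. Among all measured genes, 534 (3.75%) were higher and 883 (6.20%) lower by this rule, and the median log2 ratio (without over with glucose) was 0.01, with quartiles at -0.45 and 0.42. Genes of small nucleolar, Cajal body and microRNAs took 7.99% of the counts without glucose and 5.83% with glucose, which is a further difference between the libraries. Its part in the ratios below was not tested. Leaving these genes out of the library sizes changes the scaling only. The log2 ratio was then 1.88 for RRAGC, 1.18 for FLCN and -1.60 for TFEB.

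The renal transcription factor gene PAX8 had 232 CPM without glucose and 244 CPM with glucose. Other renal markers differed between the libraries. CDH6 had 8.36 CPM without glucose and 192 CPM with glucose, and LHX1 had 3.38 and 19.5 CPM. EPAS1 went the other way, with 422 CPM without glucose and 134 CPM with glucose. None of 5 leukocyte and endothelium markers (PTPRC, CD3E, LYZ, PECAM1 and CDH5) was measured, each having at most 9 counts in a library. MITF is best known as the master factor of melanocytes, and the melanocyte genes TYR, TYRP1, MLANA and DCT had at most 4 counts in either library. The melanocyte gene PMEL was measured, with 14 counts without glucose and 19 with glucose.

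The promoters of RRAGC and FNIP1 are shown because each holds the E-box CACGTG that TFE factors bind, those of FLCN and FNIP2 because FLCN differed without such a match and FNIP2 is the close relative of FNIP1. Sequences are from RefSeq on GRCh38.p14, 250 bases before to 50 after the transcription start, 5′ to 3′ on the strand of the gene, with matches to CACGTG in capitals.
RRAGC (chr1:38859723-38860022, minus strand): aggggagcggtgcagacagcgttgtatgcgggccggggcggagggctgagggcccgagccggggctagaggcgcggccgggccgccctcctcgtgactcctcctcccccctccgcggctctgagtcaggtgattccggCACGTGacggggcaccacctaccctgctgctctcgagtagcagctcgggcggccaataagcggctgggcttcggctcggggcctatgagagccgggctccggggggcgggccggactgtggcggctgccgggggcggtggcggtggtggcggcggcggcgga
FNIP1 (chr5:131796968-131797267, minus strand): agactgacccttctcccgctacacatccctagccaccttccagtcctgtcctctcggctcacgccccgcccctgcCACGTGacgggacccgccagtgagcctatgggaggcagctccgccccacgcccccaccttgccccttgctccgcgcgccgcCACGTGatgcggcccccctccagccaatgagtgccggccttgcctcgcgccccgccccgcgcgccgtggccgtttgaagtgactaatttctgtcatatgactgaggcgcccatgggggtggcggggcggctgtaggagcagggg
FLCN (chr17:17237119-17237418, minus strand): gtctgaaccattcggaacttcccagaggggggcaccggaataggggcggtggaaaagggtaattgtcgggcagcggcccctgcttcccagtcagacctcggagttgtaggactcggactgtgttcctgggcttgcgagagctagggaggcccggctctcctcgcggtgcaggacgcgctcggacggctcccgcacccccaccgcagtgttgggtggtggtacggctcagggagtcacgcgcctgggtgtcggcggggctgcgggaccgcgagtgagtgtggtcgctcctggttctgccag
FNIP2 (chr4:158768776-158769075, plus strand, the first of 2 starts): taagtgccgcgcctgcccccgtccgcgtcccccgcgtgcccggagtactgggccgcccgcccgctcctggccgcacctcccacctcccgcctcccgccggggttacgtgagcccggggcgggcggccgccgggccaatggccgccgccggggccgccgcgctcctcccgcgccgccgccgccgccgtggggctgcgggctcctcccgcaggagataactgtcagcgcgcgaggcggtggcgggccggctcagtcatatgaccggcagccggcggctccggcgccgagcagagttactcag

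The RRAGC promoter had 1 E-box, at position -112 from the start, and the FNIP1 promoter had 2, at -175 and -94. CACGTG reads the same on both strands. Of 35116 promoter windows of this length in the RefSeq table, 7.26% held CACGTG, and 8.77% of the genes in the table had at least 1 window with it. The table had windows for 7 of the 9 genes (12 windows), and CACGTG was in 2 of these genes. Neither FLCN, TFE3, any of the 3 starts each of TFEB and MITF, nor either start of FNIP2 held it. The longer palindrome of GTCAC and its reverse complement, the consensus of the CLEAR element of lysosomal genes, contains CACGTG and was in 0.353% of all windows and in none of these. CATGTG, the core of the M-box bound by MITF, searched on both strands, was in 11.1% of all windows and, among these, in the second FNIP2 window. RRAGA and RRAGD had no entry. A match describes the letters of a window and does not show binding.

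Among the transcription factors, TFE3 carried most of the transcripts in both libraries. TFE3 (hg19 chromosome X, 48886242 to 48900990, minus strand) had 2096 counts (68.2 CPM) without glucose and 1859 counts (66.7 CPM) with glucose. These CPM intervals, 65.3 to 71.2 without glucose and 63.7 to 69.9 with glucose, overlapped, and the log2 ratio of 0.03 turned to -0.03 when libraries were scaled by total counts and to -0.02 on the deposited RPKM values. Reads covered all 10 of its exons with more than 10 reads each in both libraries.

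TFEB, the factor after which lysosomal gene control is usually named, had the fewest counts of the 9 genes without glucose. It (hg19 chromosome 6, 41651716 to 41703997, minus strand) had 83 counts (2.70 CPM) without glucose, against 231 counts (8.29 CPM) with glucose. The intervals were 2.15 to 3.35 CPM without glucose and 7.26 to 9.44 CPM with glucose and did not overlap. The log2 ratio was -1.62 (interval -2.00 to -1.25), lower by the rule of size, and 4.01% of measured genes had a lower ratio. Of its 11 exons, 3 had more than 10 reads without glucose and 6 with glucose. Adding 1 CPM to each library gave a log2 ratio of -1.33.

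MITF, whose gene has many alternative starts, had fewer counts without glucose, just short of the rule. Its 8 RefSeq transcripts (hg19 chromosome 3, 69788586 to 70017488, plus strand) were counted as 1 gene model. It had 598 counts (19.5 CPM) without glucose, against 1172 counts (42.1 CPM) with glucose. The log2 ratio was -1.11, with an interval of -1.26 to -0.97 that crossed the bound of -1, and 9.19% of measured genes had a lower ratio. Scaling by total counts gave -1.17 and put MITF past the rule. Of 17 exons, 9 had more than 10 reads without glucose and 12 with glucose. The counts do not separate its isoforms.

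Because the libraries' scale cancels within a pair of genes, the 3 factors were also compared with each other. The TFEB to TFE3 ratio without glucose was 0.319 of that with glucose (exact conditional 95% interval 0.243 to 0.415), and the MITF to TFE3 ratio was 0.453 of it (0.402 to 0.509). The TFEB to MITF ratio was 0.704 of it (0.531 to 0.928), a smaller difference. Per kilobase of gene model, TFE3 made up 82.4% of the summed level of the 3 genes without glucose and 65.7% with glucose. The share of MITF was 13.1% without glucose and 23.0% with glucose, and that of TFEB 4.49% without glucose and 11.2% with glucose. Each level was divided by the full gene model, which for MITF has 6080 bases and 8 transcripts and for TFE3 1 transcript. The shares are therefore rough, as is the order of genes per kilobase given below. The sum itself was 24.4 CPM per kb without glucose and 30.03 CPM per kb with glucose. TFEC, the remaining gene of the family, had 3 counts without glucose and 2 with glucose.

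**Figure D1:**
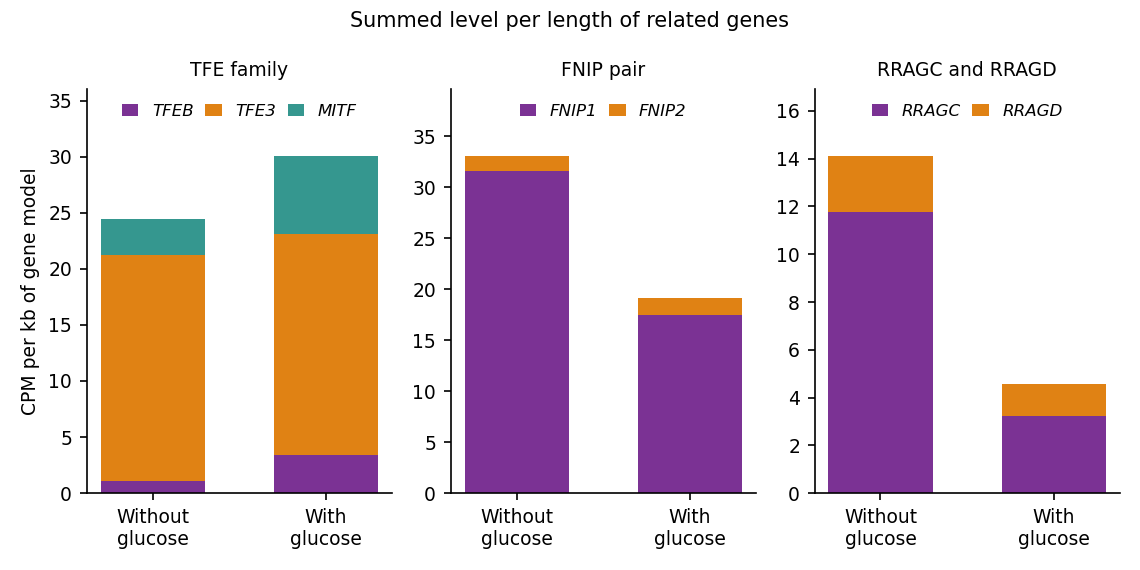
Stacked bars give the summed level, in CPM per kilobase of gene model, of TFEB, TFE3 and MITF, of FNIP1 and FNIP2, and of RRAGC and RRAGD in the library without glucose (left bar) and the library with glucose (right bar), each panel on its own scale. The TFE family sum is lower without glucose, 24.4 against 30.03, through smaller TFEB and MITF segments, while the RRAGC and RRAGD sum is higher, 14.1 against 4.58.

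FLCN, the tumour suppressor gene of Birt-Hogg-Dube syndrome, was higher without glucose. It (hg19 chromosome 17, 17115527 to 17140502, minus strand) had 3310 counts (107.7 CPM) without glucose, against 1337 counts (48.0 CPM) with glucose. The intervals, 104 to 111 CPM without glucose and 45.5 to 50.6 CPM with glucose, lay far apart. Its log2 ratio was 1.17 (interval 1.07 to 1.26), past the rule, and 765 measured genes (5.37%) had a higher ratio. All 15 exons had more than 10 reads in both libraries.

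FNIP1, the more abundant FLCN partner, was higher by less than 2-fold. It (hg19 chromosome 5, 130977407 to 131132756, minus strand) had 6415 counts (209 CPM) without glucose, against 3211 counts (115 CPM) with glucose. The log2 ratio was 0.86 (interval 0.79 to 0.92), wholly above 1.5-fold and wholly below 2-fold, and 9.87% of measured genes had a higher ratio. More than 10 reads fell on 18 of its 18 exons without glucose and on 16 with glucose.

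FNIP2, which can stand in for FNIP1, had a ratio on the other side of 1. It (hg19 chromosome 4, 159690182 to 159827954, plus strand) had 247 counts (8.03 CPM) without glucose, against 273 counts (9.80 CPM) with glucose. The intervals of 7.06 to 9.10 CPM without glucose and 8.67 to 11.04 CPM with glucose overlapped. The log2 ratio was -0.29 (interval -0.54 to -0.03), a value inside the middle 50% of all measured genes. The minus-strand gene C4orf45 overlaps it, with 0 counts without glucose and 1 with glucose.

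The FNIP1 to FNIP2 ratio without glucose was 2.21 times that with glucose (interval 1.84 to 2.65). FNIP1 made up 95.8% of the pair's level per kilobase without glucose and 91.1% with glucose. The FLCN to FNIP1 ratio was 1.24 times that with glucose (1.15 to 1.34), so these partners were closer to each other in their differences. Per kilobase, FLCN stood at 0.843 of FNIP1 without glucose and at 0.680 of it with glucose.

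All 3 Rag genes had higher CPM without glucose. RRAGA encodes RagA from a single exon (hg19 chromosome 9, 19049372 to 19051021, plus strand) and had 7329 counts (238 CPM) without glucose, against 4120 counts (148 CPM) with glucose. Its log2 ratio was 0.69 (interval 0.63 to 0.74), above 1.5-fold and below 2-fold. It was the most abundant of the 9 genes per kilobase in both libraries.

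RRAGC had the highest ratio of the 9 genes. It (hg19 chromosome 1, 39305015 to 39325340, minus strand) had 516 counts (16.8 CPM) without glucose, against 128 counts (4.60 CPM) with glucose. The intervals were 15.4 to 18.3 CPM without glucose and 3.83 to 5.46 CPM with glucose and did not overlap. The log2 ratio was 1.87 (interval 1.59 to 2.16), and 281 measured genes (1.97%) had a higher one. All 7 exons had more than 10 reads without glucose, and 4 had with glucose. Adding 1 CPM to each library gave 1.67.

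RRAGD, the RagD gene (hg19 chromosome 6, 90074335 to 90121995, minus strand), had 351 counts (11.4 CPM) without glucose, against 185 counts (6.64 CPM) with glucose. Its log2 ratio of 0.78 had an interval of 0.52 to 1.05, which spanned both 1.5-fold and 2-fold, so its size is loosely fixed at this depth. The RRAGC to RRAGD ratio without glucose was 2.12 times that with glucose (interval 1.62 to 2.79), and the RRAGC to RRAGA ratio was 2.27 times it (1.86 to 2.78). The RRAGD to RRAGA ratio differed by 1.07 times, with an interval of 0.886 to 1.29 that included 1. RRAGC made up 83.5% of the level per kilobase of RRAGC and RRAGD together without glucose and 70.5% with glucose. RRAGB, the remaining Rag gene, had 560 counts (18.2 CPM) without glucose, against 261 counts (9.37 CPM) with glucose, a log2 ratio of 0.96 (0.74 to 1.18).

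**Figure D2:**
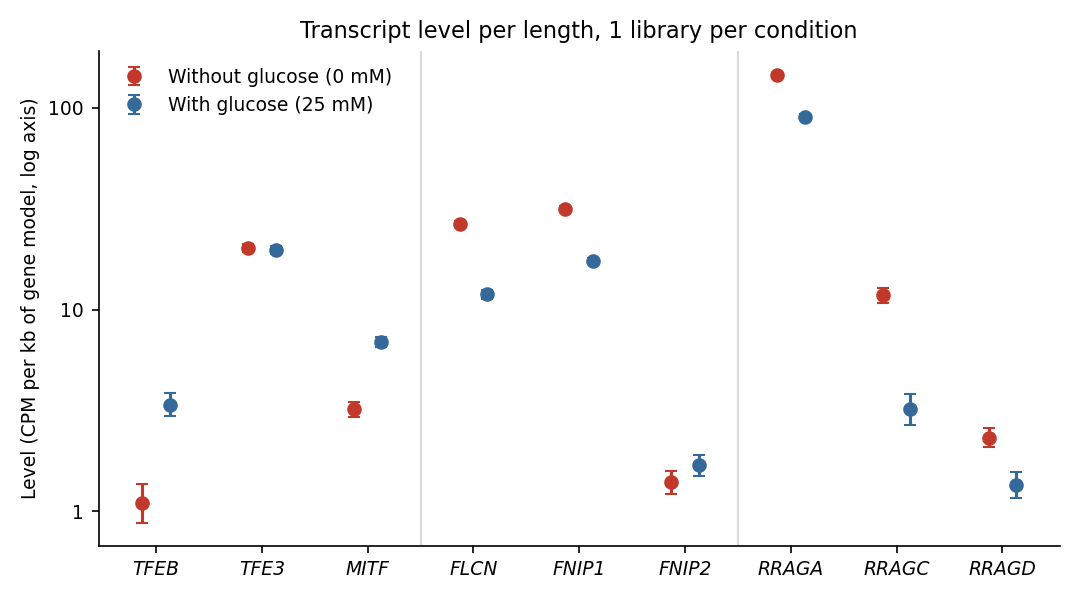
Points give the level of each gene per kilobase of gene model (CPM per kb, log axis) without glucose (left point of each pair) and with glucose (right point), with exact 95% Poisson intervals, 1 library each. RRAGA leads in both libraries, at 144.6 without glucose and 89.7 with glucose, and RRAGC stands above TFEB without glucose (11.8 and 1.10) and close to it with glucose (3.23 and 3.38).

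Ordered by level per kilobase, the library without glucose ran from RRAGA (144.6 CPM per kb) through FNIP1 (31.6), FLCN (26.7), TFE3 (20.2), RRAGC (11.8), MITF (3.20), RRAGD (2.32) and FNIP2 (1.39) to TFEB (1.10). Of these neighbours, FNIP2 and TFEB did not differ beyond their counting intervals. With glucose the order was RRAGA (89.7 CPM per kb), TFE3 (19.7), FNIP1 (17.5), FLCN (11.9), MITF (6.92), TFEB (3.38), RRAGC (3.23), FNIP2 (1.70) and RRAGD (1.35). There, TFEB and RRAGC, and FNIP2 and RRAGD, had overlapping intervals. TFE3 was thus above FNIP1 and FLCN with glucose and below both without it.

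By the rule of size, 2 of the 9 genes were higher (RRAGC and FLCN) and 1 was lower (TFEB), beside 3.75% and 6.20% of all measured genes. With 1.5-fold in place of 2-fold, 4 were higher (RRAGC, FLCN, FNIP1 and RRAGA), where 10.2% of measured genes were, and 2 were lower (TFEB and MITF), where 12.6% were. With 3-fold, RRAGC was higher, where 1.40% of measured genes were, and none of the 9 was lower, where 2.15% were. The median log2 ratio of the 9 genes was 0.69, and 6 of them lay above 0, where 50.9% of all measured genes lay. Longer gene models tended to lower ratios, with a median of 0.31 in the shortest of 10 length classes and -0.21 in the longest. Within their own length classes, the median was 0.17 for RRAGC, -0.07 for FLCN, -0.16 for FNIP1 and MITF, and 0.05 for TFEB. With that class median subtracted the log2 ratios were 1.70 for RRAGC, 1.24 for FLCN, 1.02 for FNIP1, -0.95 for MITF and -1.67 for TFEB. The RRAGC interval began at 3.004-fold, and it began below 3-fold with total counts (2.89), DESeq2 size factors (2.97) and the length class median subtracted (2.67). That of RRAGA began below 1.5-fold with total counts (1.49) and the length class median subtracted (1.40). The FNIP2 interval included 1 with upper quartile scaling (0.705 to 1.003) and with the length class median subtracted (0.770 to 1.095).

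**Figure D3:**
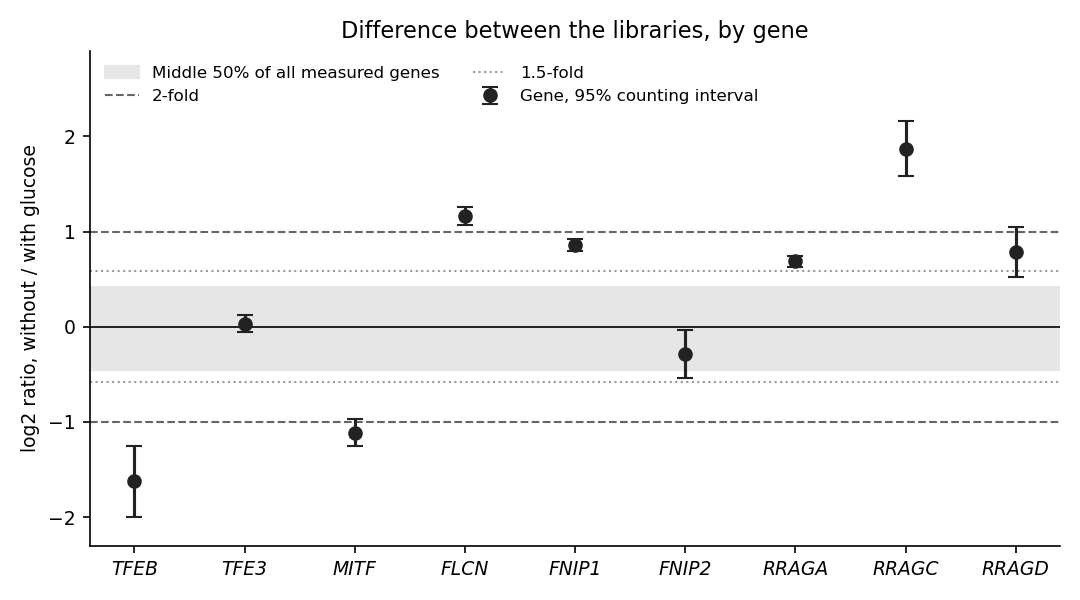
Points give the log2 ratio (without over with glucose) of each gene, with the exact 95% counting interval, and the grey band is the middle 50% of all measured genes. RRAGC and FLCN lie wholly above the 2-fold line, TFEB wholly below the lower one, MITF crosses it at -1.11, and the points of TFE3 and FNIP2 lie in the band.

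**Figure D4:**
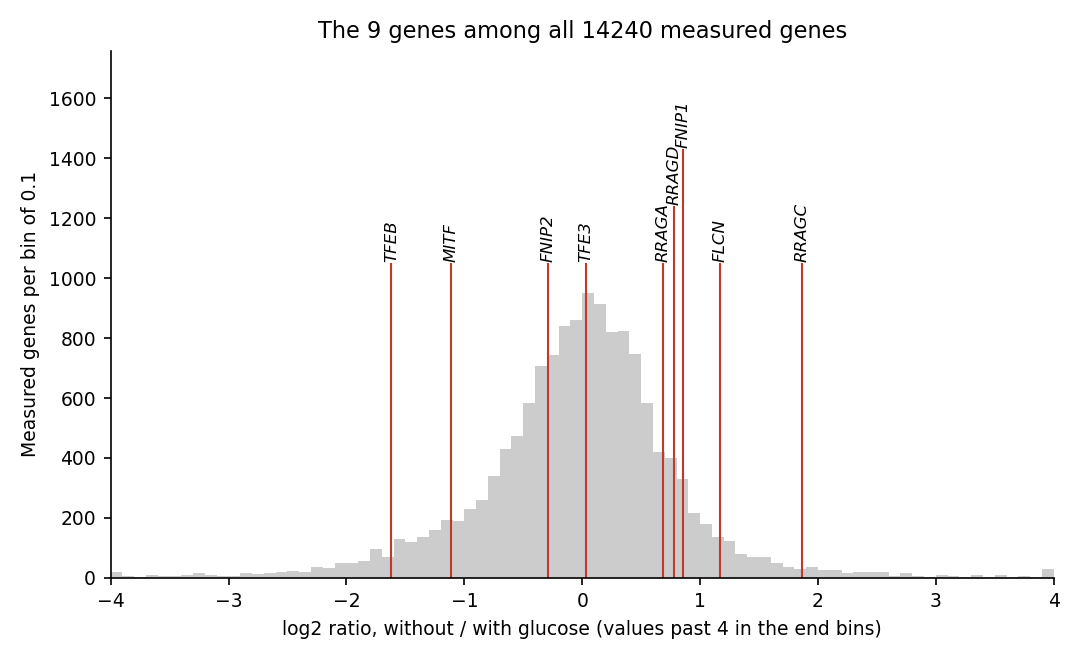
Grey bars count all 14240 measured genes by log2 ratio, in bins of 0.1 with values past 4 in the end bins, and red lines mark the 9 genes. The lines spread from TFEB at -1.62 to RRAGC at 1.87, with FNIP2 and TFE3 near the centre.

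Reads could be shared with other transcripts for some of these genes. The search took the longest GENCODE transcript matched to each gene's RefSeq accessions, which is not the counted gene model: for FLCN it had 1692 bases, against 4038 in the gene model, and for RRAGC 2732, against 1425. In these transcripts, no stretch of 50 bases of TFEB, TFE3, MITF, FNIP2, RRAGA or RRAGD occurred in a transcript of another gene. For RRAGC 42.3% of the stretches and for FLCN 33.7% also lay in a transcript of a gene overlapping the same locus, and for FNIP1 2.68%. RRAGC, FLCN and FNIP1 counts may thus include such overlapping transcripts. The RRAGC transcript searched was longer than its gene model, so its shared stretches may also lie outside the bases that were counted. Outside the locus, no stretch of the RRAGC and FLCN transcripts searched was shared, and 0.0631% of those of FNIP1. The rest of the FLCN gene model was not searched.

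The genes with levels most like RRAGC, by distance in the plane of log2 CPM without and with glucose, were HDDC3 (15.3 CPM without glucose and 4.92 CPM with glucose), C19orf33 and RBKS, at distances of 0.17, 0.30 and 0.30. Those most like TFEB were RFX2 (2.57 CPM without glucose and 8.62 CPM with glucose), B3GNT7 and MAPK10, at 0.09, 0.10 and 0.10. The likeness rests on 2 libraries.

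The lysosomal machinery around the Rag GTPases is listed next. The first 7 genes were those of RagB, the LAMTOR (Ragulator) subunits that anchor the Rag pairs to the lysosome and SLC38A9, a lysosomal arginine sensor. All 7 had log2 ratios above 0 (0.34 to 0.96), where 50.9% of all measured genes lay, and none passed the 2-fold rule. The next in size after RRAGB were LAMTOR3 (log2 ratio 0.81), LAMTOR1 (0.49) and SLC38A9 (0.45). Of 12 genes of GATOR1, the GTPase-activating complex for RagA and RagB, GATOR2 and KICSTOR, none passed, with a median of 0.31. The KICSTOR gene C12orf66 was at 0.90, KPTN at 0.57, ITFG2 at 0.48 and the GATOR2 gene SEH1L at 0.45. Of 6 mTORC1 genes none passed either, with MLST8 at 0.83, DEPTOR at 0.26, RPTOR at 0.20 and MTOR at -0.13. Of 6 measured amino acid sensor genes, GATSL3, which encodes the arginine sensor CASTOR1, was lower, with 2.60 CPM without glucose and 10.4 CPM with glucose (log2 ratio -2.00, interval -2.38 to -1.64). SESN3 was at 1.39 on 26 counts without glucose and 9 with glucose, the leucine sensor gene SESN2 at 0.78 and SESN1 at -0.37. Over these 4 lists, 0 of 31 measured genes were higher and 1 was lower, beside 3.75% and 6.20% of all measured genes. With 1.5-fold 5 were higher (16.1%) and 1 lower, beside 10.2% and 12.6%.

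Upstream of TFEB, MCOLN1, the lysosomal calcium channel that activates its phosphatase calcineurin, was higher, at 26.3 CPM without glucose and 10.9 CPM with glucose (log2 ratio 1.27, interval 1.08 to 1.47). It was the only gene past the rule among 13 genes that also covered calcineurin, 14-3-3 retention proteins, GSK3B and the exporter XPO1. Of all measured genes, 3.75% were higher and 6.20% lower. The 14-3-3 gene SFN was at 0.84, the calcineurin gene PPP3CB at 0.55 and XPO1 at -0.53. The median of the list was -0.05.

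Genes of lysosomes and autophagy were taken as 4 lists, of which only the autophagy list was defined by reported TFEB binding. Over these 4 lists, 10 of 61 measured genes (16.4%) were higher and 0 lower, beside 3.75% and 6.20% of all measured genes. Scaled by total counts, 7 of the 61 (11.5%) were higher, beside 3.35% of all measured genes, and CTSL, CLCN7 and VPS11 were no longer past the rule. With 1.5-fold 22 (36.1%) were higher and 0 lower, beside 10.2% and 12.6%. These lists were picked with the direction of some of their genes known. Their median log2 ratio was 0.53, and 48 of the 61 lay above 0, where 50.9% of all measured genes lay. Of 23 hydrolases and cofactors 3 were higher, the sialidase gene NEU1 (log2 ratio 1.69), the peptidase gene TPP1 (1.19) and the cathepsin gene CTSL (1.13), whose call was also lost with the length class median subtracted, with HEXA at 0.98. Of 10 membrane proteins 2 were higher, TMEM192 (1.27) and the chloride transporter gene CLCN7 (1.11), whose call was also lost with DESeq2 size factors, with the cystine transporter gene CTNS at 1.16 and LAMP1 at 0.66. Of 16 subunits and accessory proteins of the V-ATPase proton pump 1 was higher, ATP6V0D2, at 334 counts without glucose and 8 with glucose (log2 ratio 5.24, interval 4.25 to 6.46), while ATP6V0B stood at 1.08, ATP6V1F at 1.07 and ATP6V1G1 at 0.96. Of 12 autophagy genes 4 were higher, MAP1LC3B (2.02), the autophagy receptor gene SQSTM1 (1.78), WIPI1 (1.51) and VPS11 (1.16). GPNMB, a glycoprotein gene used as a marker of TFE activity in renal tumours, was higher, with 118 counts without glucose and 35 with glucose (log2 ratio 1.61, interval 1.06 to 2.20), a call lost when libraries were scaled by total counts. PPARGC1A, a coactivator gene of mitochondrial biogenesis, had 30 counts without glucose and 17 with glucose, too few to fix a direction (0.68, interval -0.23 to 1.63). Of the melanocyte genes, RAB27A was at -1.01 and PMEL at -0.58, neither past the rule. The renal genes CDH6 (-4.52) and LHX1 (-2.53) were lower and EPAS1, the HIF-2 alpha gene, was higher (1.65).

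**Figure D5:**
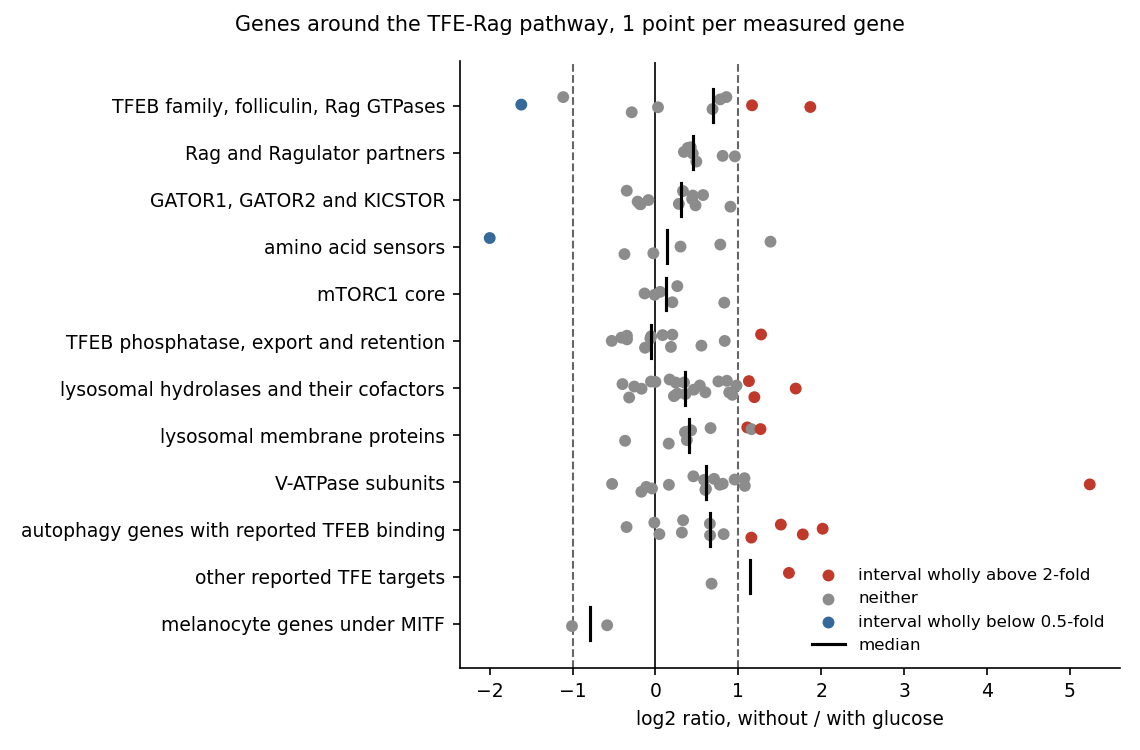
Each point is a measured gene, placed by its log2 ratio (without over with glucose), black bars are list medians, and dashed lines mark 2-fold. Points past the rule are red (higher) or blue (lower): the lysosome, V-ATPase and autophagy lists hold 10 red points and no blue one, and the Rag, GATOR, sensor and mTORC1 lists hold 1 blue point, GATSL3.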

How the data were processed

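Each table listed 24364 gene models, on hg19 per the submitters' processing notes. Counts were deposited as raw whole numbers. RPKM, per the file headers, is the authors' count per kilobase and per 1000000 reads, used as an alternative only. The number of exons with more than 10 reads is also the authors' value. Aligner, counting program, strand use and library preparation are not stated in the labels or headers. Starts are printed as in the tables.

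Rows repeating the place, length and both counts of another (528) were dropped and counts summed by symbol (Python 3.11.15, pandas 2.3.3, numpy 2.4.6). TMM factors (edgeR 4.0.16, R 4.3.3) were 0.981 without glucose and 1.02 with glucose. Ratios carry exact 95% Clopper-Pearson intervals and levels exact Poisson intervals (scipy 1.17.1), which treat PCR copies as independent. On simulated data, among changed genes expected to have at least 50 counts, 0 of 50 genes changed 1.5-fold, 1 of 50 changed 2-fold and 49 of 50 changed 4-fold passed the 2-fold rule, as did 0 of 13929 unchanged genes. The simulation held counting error only, not differences between cultures.

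The genes and the 13 other lists (140 distinct genes in all, each matched, 9 of them by RefSeq accession) were chosen with earlier results of these data known. Named were the 9 genes, for each list up to 4 measured genes by absolute log2 ratio, and the 3 nearest in level to the highest and lowest of the 9. Markers, RRAGB, TFEC and C4orf45 are given for context. The result of 1 marker gene is not reported here.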

Additional observations from a re-analysis of the deposited data

How the results depend on the processing

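No paired analysis was possible because each condition had 1 library, and for the same reason no library could be left out. Other scalings (total counts, upper quartile, DESeq2 size factors), the deposited RPKM values and 1 CPM added to both libraries were planned, and leaving out small RNA genes and subtracting the length class median were chosen after seeing the data. Across these 7 alternatives the log2 ratio ranged from 1.67 to 1.91 for RRAGC, 1.11 to 1.24 for FLCN, 0.80 to 1.02 for FNIP1, 0.70 to 0.88 for RRAGD, 0.54 to 0.73 for RRAGA, -0.34 to -0.12 for FNIP2, -1.17 to -0.95 for MITF and -1.68 to -1.33 for TFEB, and only TFE3 changed sign (-0.03 to 0.07). Values outside the counting interval were, with the length class median subtracted, MITF at -0.95, FNIP1 at 1.02 and RRAGA at 0.54, and with total counts RRAGA at 0.63. Over the 4 lysosome, V-ATPase and autophagy lists 7 genes were higher with total counts, 9 with DESeq2 size factors and 11 with upper quartile scaling, against 10 with TMM, and none was lower. With total counts 2 of the 9 genes were lower, TFEB and MITF. The counts depended on the size asked for, by construction. With 1.5-fold, 4 of the 9 genes were higher and 2 lower, and of all measured genes 1451 were higher and 1800 lower. With 3-fold, 1 of the 9 was higher and 0 lower, and of all measured genes 200 were higher and 306 lower. The median of the amino acid sensor list turned to -0.026 with at least 100 counts asked for, since SESN3 then dropped out, and that of the TFEB phosphatase, export and retention list to 0.15 with the length class median subtracted. Depth limits TFEB (83 counts without glucose), RRAGC (128 counts with glucose) and RRAGD most.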

Other observations

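The E-box was counted across all genes as a description. Of 9369 measured genes with a RefSeq promoter window, the 1166 with CACGTG had a median log2 ratio of 0.11, and the 8203 without it one of -0.03. Of those with the E-box 4.37% were higher and 3.69% lower, and of those without it 3.45% were higher and 6.62% lower. The 84 genes with the CLEAR palindrome had a median of 0.21, with 3 higher and 4 lower. Among the gene lists, CACGTG was in 7 of 13 hydrolase genes with a window, 3 of 8 lysosomal membrane genes, 3 of 10 V-ATPase genes, 2 of 10 autophagy genes, 1 of 3 other reported targets, 3 of 7 RagB, Ragulator and SLC38A9 genes, 2 of 10 genes of the TFEB phosphatase, export and retention list and 1 of 9 GATOR and KICSTOR genes. It was in 0 of 3 amino acid sensor genes, 0 of 3 mTORC1 genes, 0 of 6 melanocyte genes, 0 of 5 renal genes and 0 of 1 leukocyte and endothelium gene. Of all genes with a window 8.77% had it. CACGTG is also bound by factors outside the TFE family, so the counts name no factor.

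FNIP2 had fewer counts without glucose, yet 7 of its 17 exons passed 10 reads without glucose and 4 with glucose.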
